A study of Mus musculus with 12 samples.

Results

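The genes described here encode the machinery of endocytosis and vesicle trafficking, measured in the kidney cortex of mice. They were taken as every probe whose gene symbol begins with one of a set of family stems. These are Rab, Stx and Sec followed by a digit, Arf followed by a digit or g, Cop followed by a letter, and Vps, Snx, Vamp, Ehd, Scamp, Clt, Lrp and Tmed. The adaptor stems Ap1 to Ap4 followed by a letter, and Dab2, complete the rule. The rule found 221 probes for 170 genes among 9191 probes with a single symbol, on an array of 15600 probes. Of these, 167 probes for 138 genes were bright enough to be compared, out of 7776 such probes on the array. The study used 6 cortex samples, Menopausal 1 to 3 and Control 1 to 3. The labels give VCD as the treatment of the menopausal samples, letters that usually stand for vinylcyclohexene diepoxide, an agent that removes ovarian follicles in rodents. The control samples carry no agent in the labels. The strain, sex and age of the mice, the dose and time of VCD, and how many mice gave each sample are not stated. The p-values below therefore measure the spread between these samples, which may be technical. Each of 12 arrays held a pair of samples in 2 colours, 6 of the arrays across groups.

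Endocytosis starts at the plasma membrane, where receptors gather in pits coated by clathrin and its adaptor complexes. Cargo reaches early endosomes, from which recycling GTPases, Ehd proteins and retromer return receptors to the surface, while the ESCRT and HOPS complexes send the rest to lysosomes. The secretory route runs the other way, with COPII vesicles leaving the endoplasmic reticulum, COPI vesicles returning from the Golgi, and SNARE proteins fusing vesicles with their target. In the kidney, the proximal tubule uses this machinery to retrieve filtered proteins through the receptor megalin, encoded by Lrp2.

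The values are log2 levels of a probe in a sample relative to its mean over the 6 samples, so levels are comparable between samples and not between probes. The spots above local background ranged from 16.6% to 77.4% of a channel, and the small number of arrays limits the precision. Gene names rest on a spot order read from the values: probes of the same gene then had brightness correlated at 0.351 across probes, against 0.0293 in the scanner's own order. The groups follow the labels attached to the scanner tables. None of the 12 columns of the deposited value table was closest to its own array. Each was closest to another array, a different one for each column, with a negative correlation of 0.503 to 0.677 in size. Which labels are right is not known, and every group difference below rests on those of the scanner tables. The slide numbers of the arrays fell in a lower range of 9 arrays and a higher range of 3. The higher range held no array across groups, so it gives no group difference of its own. Of the other cell types checked by marker lists, the blood gene list varied most between samples, at 0.56, 0.04 and -0.48 in Menopausal 1 to 3, against -0.17, -0.61 and 0.73 in Control 1 to 3, as the median of 3 probes. The distal tubule marker Calb1 had medians over 4 probes of -0.22, 0.02 and -0.13 in Menopausal 1 to 3, against 0.21, -0.04 and 0.18 in Control 1 to 3, so the groups overlapped. On 1 of these 4 probes they did not, with -0.35, -0.08 and -0.20 in Menopausal 1 to 3, against 0.36, 0.0054 and 0.27 in Control 1 to 3, a difference of -0.42 ± 0.13 (adjusted p = 0.921 in limma's test). The part of these cell types in the results below was not tested.

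No trafficking gene passed the test between menopausal and control cortex. Limma's moderated statistic, 3 samples against 3, called 0 of the 167 member probes at an adjusted p under 0.05, and 0% of the 7776 probes tested on the array. The lowest adjusted p was 0.921, for the members as for the whole array. Without adjustment, 8 members (4.79%) had a p under 0.05, against 4.98% of all probes tested. Of these, 3 were higher in menopausal cortex and 5 lower, against 2.58% and 2.39% of all probes. With global loess in place of print-tip loess, 10 members (5.99%) had such a p, against 7.7% of all probes. The menopausal and control values did not overlap for 20 members, which is 12% of the members against 12.1% of all probes. They were higher in menopausal cortex for 9 and lower for 11, against 6.19% and 5.9% of all probes. The members' counts thus lie near the background, and nothing about the family follows from them. The median difference of the members, menopausal minus control, was -0.0011 on the log2 scale, against 0.0011 for all probes tested. The 95% interval lay within a fold change of 1.5 either way for 159 of the 167 members. The same was not counted for all probes, whose median standard error was 0.092, against 0.094 for the members. The unadjusted count was 13 without Control 2, where 6.71% of all probes had such a p. It was 4 without Control 3 and 4 when the higher slide range was left out, where 3.24% and 2.97% of all probes had one.

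**Figure D1:**
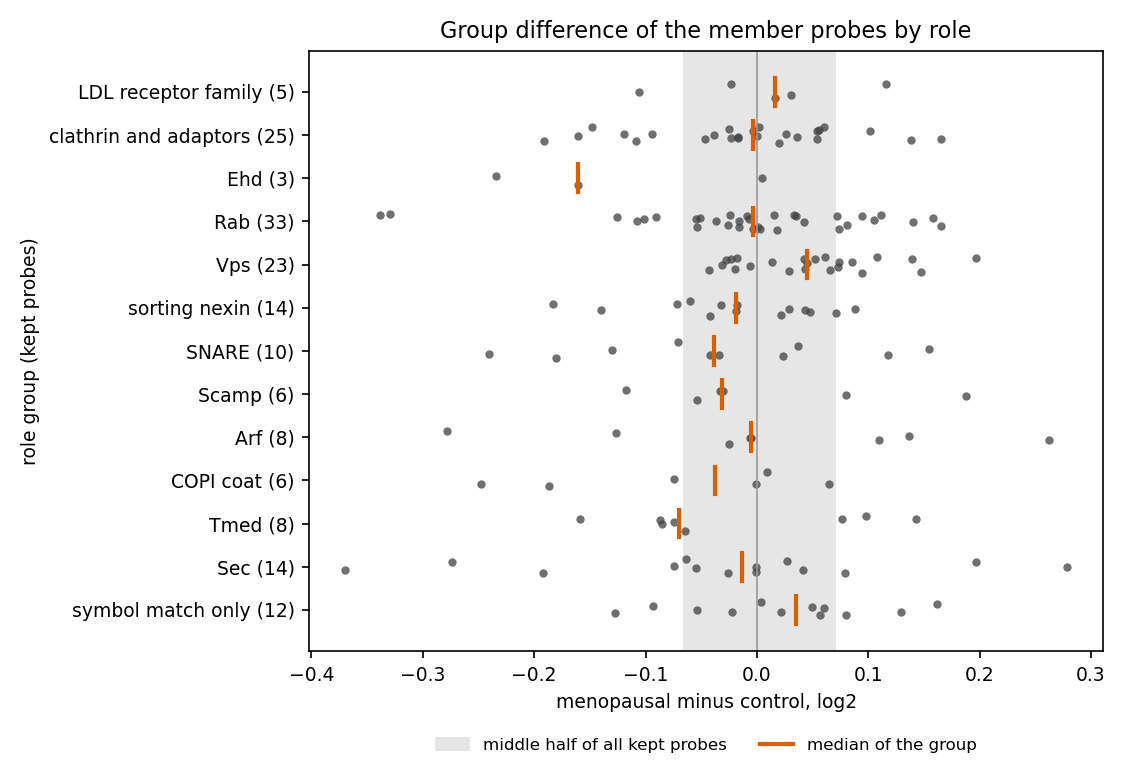
Difference between menopausal and control cortex for the 167 kept trafficking probes. Each point is a probe, placed by its log2 difference, menopausal minus control, with 3 samples per group; role groups run down the page with their number of probes, short bars mark group medians and the band holds the middle of all 7776 probes tested, from the lower to the upper quartile. The Ehd group has 2 of its 3 probes well below 0 and the Vps group has 16 of 23 above 0. Of these 16, some were kept only through the menopausal group and some fall below 0 under global loess.

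Megalin is the large endocytic receptor of the proximal tubule, and its transcript did not pass the test. The first Lrp2 probe had values of -0.19, 0.14 and 0.01 in Menopausal 1 to 3, against 0.12, -0.12 and 0.04 in Control 1 to 3. The second Lrp2 probe had -0.50, 0.25 and 0.28 in Menopausal 1 to 3, against 0.20, -0.27 and 0.04 in Control 1 to 3. Both probes were lowest in Menopausal 1 and next lowest in Control 2, and the groups overlapped. The differences, menopausal minus control, were -0.02 ± 0.15 and 0.02 ± 0.23 (SE, n = 3 per group), with 95% intervals of -0.38 to 0.33 and -0.50 to 0.53. Over 17 alternatives of processing and left-out samples they ran from -0.11 to 0.21 and from -0.13 to 0.23. Dab2 encodes the adaptor that binds the tail of megalin. Its first probe had -0.22, 0.22 and -0.28 in Menopausal 1 to 3, against 0.20, -0.15 and 0.24 in Control 1 to 3. Its second probe had -0.18, 0.16 and 0.02 in Menopausal 1 to 3, against 0.10, -0.23 and 0.13 in Control 1 to 3. Here too Menopausal 1 and Control 2 were low on both probes, and Menopausal 3 on the first. The differences were -0.19 ± 0.18 and 0.0018 ± 0.13, with overlapping groups. Over the alternatives they ran from -0.30 to -0.08 and from -0.19 to 0.13. Lrpap1 encodes the chaperone that escorts megalin to the surface. On its first probe the values were 0.04, 0.02 and 0.12 in Menopausal 1 to 3, against -0.07, 0.0065 and -0.11 in Control 1 to 3, so that every menopausal sample was the higher. That difference was 0.12 ± 0.07, its adjusted p was 0.922 in limma's test, and the second Lrpap1 probe had 0.03 ± 0.09 with overlapping groups. Both Lrpap1 probes changed sign under global loess, to -0.08 each, and ran up to 0.15 and 0.10 over the alternatives.

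The clathrin coat and its adaptors had 25 kept probes for 18 genes, 11 above and 14 below 0, with a median difference of -0.0038. The clathrin light chain probes of Clta differed by -0.04, -0.15 and 0.06, that of Cltb by 0.10, and the heavy chain probes of Cltc by -0.09 and -0.05. In the AP-2 complex, which carries cargo into pits at the plasma membrane, the medium chain Ap2m1 had differences of -0.16 ± 0.10 and -0.11 ± 0.13 on 2 probes, and the small chain Ap2s1 had -0.02 ± 0.11. Ap4s1 encodes the small chain of AP-4, an adaptor of the trans-Golgi network. It had 0.06, 0.13 and 0.07 in Menopausal 1 to 3, against -0.01, -0.26 and 0.02 in Control 1 to 3. All menopausal samples lay above all control samples, and Control 2 was far the lowest. The difference was 0.17 ± 0.09 (adjusted p = 0.921 in limma's test) and ran from 0.03 with no background subtraction to 0.28 with median centring over the alternatives.

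Ehd4 was lower in each menopausal sample than in each control sample on both of its probes, without passing the test. It encodes an ATPase that shapes membranes of early and recycling endosomes. The first probe had -0.05, -0.08 and -0.11 in Menopausal 1 to 3, against 0.11, 0.06 and 0.07 in Control 1 to 3. The second probe had -0.08, -0.04 and -0.23 in Menopausal 1 to 3, against 0.20, 0.14 and 0.0033 in Control 1 to 3. The groups did not touch on either probe, and Menopausal 3 was the lowest on both. The differences were -0.16 ± 0.05 and -0.23 ± 0.10, with 95% intervals of -0.27 to -0.05 and -0.47 to 0.0038 and an adjusted p of 0.921 for each in limma's test. The first probe was above background in 9 of 12 measurements of the menopausal group and 6 of 12 of the control group, and its difference ran from -0.38 with median centring to -0.0011 with no background subtraction. The second probe's difference ran from -0.33 to -0.07, the smallest without Menopausal 3. The only other kept probe of the group, for Ehd3, differed by 0.0049 ± 0.09.

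Among the Rab GTPases, the switches that mark each membrane compartment, Rab12 and Rab11a had the lowest differences. The 33 kept Rab probes covered 28 genes, 16 above and 17 below 0, with a median of -0.0038 and a range of -0.34 to 0.17. Rab12 acts on recycling endosomes and on traffic to lysosomes. Its values were -0.15, -0.01 and -0.35 in Menopausal 1 to 3, against 0.15, 0.28 and 0.07 in Control 1 to 3. The groups did not overlap and Control 2 was the highest. The difference was -0.34 ± 0.12 (adjusted p = 0.921 in limma's test), and it ran from -0.52 without Control 3 to -0.003 without Control 2. Rab11a is the GTPase of the recycling endosome. Its second probe had -0.04, 0.02 and -0.47 in Menopausal 1 to 3, against 0.25, 0.14 and 0.11 in Control 1 to 3, a difference of -0.33 ± 0.15 (adjusted p = 0.921 in limma's test). Menopausal 3 was far the lowest, and the difference was -0.05 without it, with a range down to -0.49 over the alternatives. The first Rab11a probe had a difference of -0.10 ± 0.09 with overlapping groups, and ran from -0.19 to 0.08 over the alternatives. Rab11b, a close relative whose transcript may share sequence with that of Rab11a, had 0.0026 and -0.11 on 2 probes, and Rab14 had 0.17 and 0.03. Rab5a and Rab7, the GTPases of early and late endosomes, were not bright enough to be kept.

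**Figure D2:**
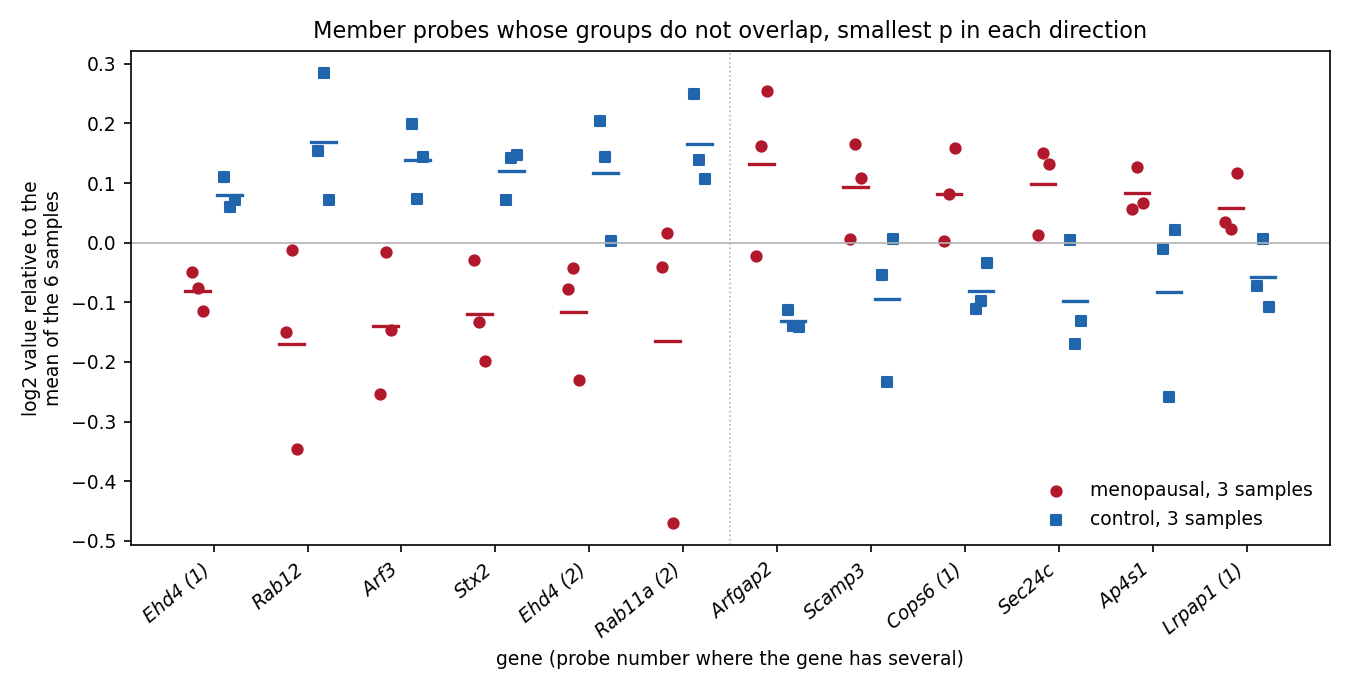
The 12 member probes with the smallest p, 6 in each direction, among those whose groups do not overlap; Cops6, a signalosome gene, is a member by its symbol only. The vertical axis is the log2 value relative to the mean of the 6 samples; circles are the 3 menopausal samples, squares the 3 control samples and short bars the group means. The 6 probes on the left lie lower in every menopausal sample and the 6 on the right higher, and Rab11a (2) has 1 menopausal sample at -0.47, far below the rest.

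The Vps group, taken by symbol, holds retromer, ESCRT and HOPS subunits together with other proteins such as Vps45 and Vps54. Of its 23 kept probes, 16 had a difference above 0, against 50.4% of all probes tested. The median difference was 0.04, with a range of -0.04 to 0.20. Of the 23, 1 probe had an unadjusted p under 0.05, and none passed the adjusted test in limma. That probe, for the ESCRT-I subunit Vps37a, was named after its values were seen. It had 0.18, -0.03 and 0.14 in Menopausal 1 to 3, against -0.16, -0.17 and 0.03 in Control 1 to 3. The groups overlapped, since Control 3 lay above Menopausal 2. The difference was 0.20 ± 0.07 (adjusted p = 0.921 in limma's test), and the other Vps37a probe had -0.02 ± 0.09. The probe was above background in 7 of 12 menopausal and 4 of 12 control measurements, so it was kept only through the group in which it is higher, and its difference supports nothing. The retromer core, which retrieves receptors from endosomes, stayed close to 0: Vps35 differed by 0.01 ± 0.11, Vps26a by -0.03 ± 0.12 and Vps29 by 0.04 ± 0.13.

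Promoter sequences are shown for 3 members that hold TCACGTGA, a palindromic E-box of the kind found in promoters of lysosomal genes, where it is bound by TFEB. The windows are from RefSeq on GRCm38.p6, 250 bases before to 50 after a transcription start, and 143 of the 170 member genes had at least 1, with 175 windows in all. TCACGTGA, which reads the same on both strands, was in 10 of the 175 windows (5.71%), in 2.11% of the 7021 windows of genes on the array and in 0.974% of all 32851. Vps16 and Vps33a are shown because their proteins bind each other in the core of HOPS, the tether of late endosomes and lysosomes, and Sec62 because it is among the members with the smallest p for spread between menopausal samples. The capitals mark the motif, and Vps33a holds it at a pair of places. The windows are chr2:130424070-130424369 on the plus strand for Vps16, chr5:123572966-123573265 on the minus strand for Vps33a and chr3:30792626-30792925 on the plus strand for Sec62.
Vps16: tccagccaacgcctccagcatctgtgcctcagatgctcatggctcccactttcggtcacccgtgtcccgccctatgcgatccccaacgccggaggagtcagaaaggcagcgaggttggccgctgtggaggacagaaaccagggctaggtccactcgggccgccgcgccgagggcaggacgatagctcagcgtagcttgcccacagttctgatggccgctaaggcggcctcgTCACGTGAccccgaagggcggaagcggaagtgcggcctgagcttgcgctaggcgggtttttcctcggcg
Vps33a: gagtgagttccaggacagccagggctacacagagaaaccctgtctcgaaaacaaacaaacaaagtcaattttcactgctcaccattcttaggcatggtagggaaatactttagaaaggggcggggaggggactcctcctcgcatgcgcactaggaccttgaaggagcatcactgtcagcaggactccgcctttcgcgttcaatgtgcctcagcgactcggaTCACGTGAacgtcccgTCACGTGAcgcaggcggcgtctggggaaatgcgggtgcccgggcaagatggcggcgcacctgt
Sec62: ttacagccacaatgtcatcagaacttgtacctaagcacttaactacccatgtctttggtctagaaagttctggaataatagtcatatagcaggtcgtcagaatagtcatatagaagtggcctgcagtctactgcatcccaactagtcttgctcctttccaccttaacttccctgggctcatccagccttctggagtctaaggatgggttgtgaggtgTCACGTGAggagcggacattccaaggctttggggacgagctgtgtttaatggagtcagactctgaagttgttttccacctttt
A match to these letters is no shown site of binding. The motif was found for 9 member genes, of which 6 had a kept probe, with differences of -0.05 to 0.11, 4 above and 2 below 0. Vps16 had 0.02, -0.0004 and 0.14 in Menopausal 1 to 3, against -0.04, -0.05 and -0.07 in Control 1 to 3, a difference of 0.11 ± 0.10. Vps33a had 0.03, -0.08 and 0.19 in Menopausal 1 to 3, against -0.03, -0.04 and -0.07 in Control 1 to 3, a difference of 0.09 ± 0.07. Sec62 had a difference of 0.03 ± 0.17 with overlapping groups. In Vps16 and Vps33a, Menopausal 3 was the highest sample, and the groups overlapped for Vps33a and not for Vps16. Neither of the HOPS genes passed the test (adjusted p = 0.94 and 0.924 in limma's test). The palindromic oestrogen response element in its full consensus form, searched on both strands, was in 0 of the 175 member windows, in 0.0142% of windows of genes on the array and in 0.07% of all windows.

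Sorting nexins, which bend and sort endosomal membrane, had 14 kept probes with a median difference of -0.0186 and a range of -0.18 to 0.09. Snx3, a nexin that works with retromer, had -0.02 ± 0.13 and -0.14 ± 0.13 on its 2 probes, and Snx2 had -0.04 ± 0.10. The SNARE proteins, which drive fusion, had 10 kept probes with a median of -0.04. Stx2, a syntaxin of the plasma membrane, had -0.03, -0.13 and -0.20 in Menopausal 1 to 3, against 0.07, 0.14 and 0.15 in Control 1 to 3. Each menopausal sample was below each control sample. The difference was -0.24 ± 0.10 (adjusted p = 0.921 in limma's test), and ran from -0.37 without Menopausal 1 to -0.02 with median centring over the alternatives. The endosomal SNAREs Vamp8 and Stx7 differed by 0.12 ± 0.10 and -0.18 ± 0.16, and the 3 probes of Stx3, the syntaxin of the apical membrane, by -0.13, 0.02 and -0.07. Scamp3 encodes a carrier protein of recycling membranes. It had 0.0069, 0.17 and 0.11 in Menopausal 1 to 3, against -0.05, -0.23 and 0.0062 in Control 1 to 3, so that the groups all but touched and Control 2 was the lowest. The difference of 0.19 ± 0.08 (adjusted p = 0.921 in limma's test) ran from -0.0096 with no background subtraction to 0.29 without Menopausal 1, and was 0.05 without Control 2. The other 5 kept Scamp probes lay between -0.12 and 0.08.

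On the secretory route, Arfgap2 was the member with the smallest p of all 167. It encodes a GTPase-activating protein that acts on Arf1 at the COPI coat. Its values were -0.02, 0.16 and 0.25 in Menopausal 1 to 3, against -0.11, -0.14 and -0.14 in Control 1 to 3. The control samples lay close together and all below the menopausal samples, with Menopausal 3 the highest. The difference was 0.26 ± 0.07 with a 95% interval of 0.10 to 0.43, and its adjusted p was 0.921 in limma's test. It was 0.13 without Menopausal 3, ran from 0.02 with no background subtraction to 0.33 over the alternatives, and the probe was above background in 8 of 12 menopausal and 6 of 12 control measurements. Arf3, a GTPase of the trans-Golgi network, ran the other way, with -0.25, -0.02 and -0.15 in Menopausal 1 to 3, against 0.20, 0.07 and 0.14 in Control 1 to 3. All menopausal samples were below all control samples. The difference was -0.28 ± 0.11 (adjusted p = 0.921 in limma's test), and ran from -0.39 to -0.06, the smallest with no background subtraction. The 2 probes of Arf1 had -0.0061 and 0.14. In the COPI coat, Copa had -0.19 ± 0.15 and Cope -0.0006 ± 0.08, with all groups overlapping.

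Sec24c, a cargo-binding subunit of the COPII coat, had 0.01, 0.15 and 0.13 in Menopausal 1 to 3, against 0.005, -0.17 and -0.13 in Control 1 to 3. Menopausal 1 and Control 1 were nearly level, and the rest of the samples lay apart by group. The difference was 0.20 ± 0.11 (adjusted p = 0.921 in limma's test), and ran from 0.10 without Menopausal 3 to 0.36 with median centring. The outer coat subunit Sec13 differed by -0.0011 ± 0.08. The 14 kept Sec probes ranged from -0.37 to 0.28, and both ends were named after their values were seen. Sec61g, the small subunit of the translocon of the endoplasmic reticulum, had 0.11, -0.15 and -0.52 in Menopausal 1 to 3, against 0.07, 0.33 and 0.15 in Control 1 to 3. Menopausal 3 was far the lowest and Menopausal 1 lay among the controls. The difference was -0.37 ± 0.16 (adjusted p = 0.921 in limma's test). Sec22a, a SNARE-like protein of the endoplasmic reticulum, had 0.20, 0.38 and -0.16 in Menopausal 1 to 3, against -0.31, 0.02 and -0.13 in Control 1 to 3, with overlapping groups and a difference of 0.28 ± 0.14.

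The symbol rule also took in genes that are not trafficking genes, with 12 kept probes for 9 genes. Most encode subunits of the COP9 signalosome, which strips Nedd8 from cullin ubiquitin ligases. Cops6 had 0.002, 0.08 and 0.16 on its first probe in Menopausal 1 to 3, against -0.11, -0.10 and -0.03 in Control 1 to 3. The groups did not overlap on this probe. Its difference was 0.16 ± 0.09 (adjusted p = 0.921 in limma's test), from 0.05 under global loess to 0.22 over the alternatives. The second probe had 0.13 ± 0.13 with overlapping groups, and -0.06 without Menopausal 3.

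For most members the range within at least 1 group was wider than the difference of the group means, and no member passed the test of that spread. A range of single samples and a difference of means are unlike measures, and the same comparison was not counted for all probes. Limma's moderated F statistic set the spread within a group against the error between arrays of the same RNA. It called 0 members among the control samples (1.07% of all probes tested) and 0 among the menopausal samples (0.373% of all probes). Without adjustment, 15 members (8.98%) had a p under 0.05 among controls, against 13.6% of all probes, and 16 members (9.58%) among menopausal samples, against 13.1%. Tmed7, a cargo receptor of the p24 family that cycles between the endoplasmic reticulum and the Golgi, had -0.26, 0.21 and -0.08 on its first probe in Menopausal 1 to 3, against 0.25, -0.38 and 0.26 in Control 1 to 3. The second Tmed7 probe had -0.24, 0.10 and 0.01 in Menopausal 1 to 3, against 0.23, -0.32 and 0.22 in Control 1 to 3. Control 2 was low and Controls 1 and 3 high on both probes, a range of 0.64 and 0.55 among controls. The adjusted p of the F test among controls was 0.0771 and 0.199, and the group differences were -0.09 ± 0.19 and -0.09 ± 0.17.

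Rab18, a GTPase of the endoplasmic reticulum and lipid droplets, showed the same order. Its first probe had -0.20, 0.20 and -0.02 in Menopausal 1 to 3, against 0.19, -0.36 and 0.20 in Control 1 to 3. Its second probe had -0.14, 0.18 and -0.10 in Menopausal 1 to 3, against 0.39, -0.51 and 0.18 in Control 1 to 3. Control 2 was again the lowest sample on both, with ranges of 0.56 and 0.90 among controls and an adjusted p of 0.198 and 0.229 in limma's F test. Cops4 had the widest control range of all members, 1.19 on its first probe, with 0.46, -0.73 and 0.23 in Control 1 to 3 and an adjusted p of 0.0713 in limma's F test. The second Cops4 probe did not show it, with a range of 0.15 among controls. Among menopausal samples the smallest p belonged to the second Lrp2 probe, with a range of 0.78 and an adjusted p of 0.0909 in limma's F test. The next were Vps45, a Sec1/Munc18 protein of endosomes, with a range of 0.31, an adjusted p of 0.209 and only 6 of 12 menopausal measurements above background, and Sec62, a partner of the translocon, with a range of 0.59 and an adjusted p of 0.27. Cops4 passed this F test among controls under global loess and also without Menopausal 2, with an adjusted p of 0.018 in each, where 0.823% and 1.38% of all probes passed. With the repeat mark that 4 scans carry as a block, the F test among controls called 7 of the 167 member probes, for Ap1g1, Cops4, Rab18 (both probes), Stx3, Tmed3 and Tmed7, against 5.34% of all probes, so the members' share was no higher than that of the array.

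Low values in Menopausal 1 and Control 2 were seen in many members, an order noticed in the values and given as a description. Both samples lay below Menopausal 2, Control 1 and Control 3 in 59 members (35.3%), against 22.1% of all probes tested. Of 26 member genes with more than 1 kept probe, 6 had every probe in this order: Ap1g1, Dab2, Lrp2, Rab18, Snx3 and Tmed7. The probes of a gene share the same 12 arrays, and the share among other genes of the array was not counted. Menopausal 1 to 3 had member medians of -0.05, 0.04 and -0.0002, against 0.02, -0.04 and 0.02 in Control 1 to 3. The 8 Tmed probes had medians of -0.15, 0.10 and 0.01 in Menopausal 1 to 3, against 0.18, -0.17 and 0.11 in Control 1 to 3. A median over 8 probes, 2 of them for Tmed7, varies more than a median over 167. Other small groups had like values, with -0.17 in Menopausal 1 for the 6 COPI probes and -0.14 in Control 2 for the 8 Arf probes. The proximal tubule markers Lrp2, Gatm and Miox, the 3 of 12 listed that were on the array, did not all share this order. The Lrp2 probes, members already described, and Gatm did so, and Miox did not. Gatm had -0.13 in Menopausal 1 and -0.16 in Control 2, against 0.36 in Menopausal 2, 0.20 in Control 1 and 0.33 in Control 3. Its lowest value was in Menopausal 3, at -0.59, a sample that the order leaves out. Miox was lowest in Control 3, at -0.18. The 4 probes had medians of -0.16, 0.22 and -0.03 in Menopausal 1 to 3, against 0.16, -0.14 and 0.04 in Control 1 to 3. Fewer cells of a type and less RNA per cell cannot be told apart in such bulk samples, and the part of the markers in the members' values was not tested.

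**Figure D3:**
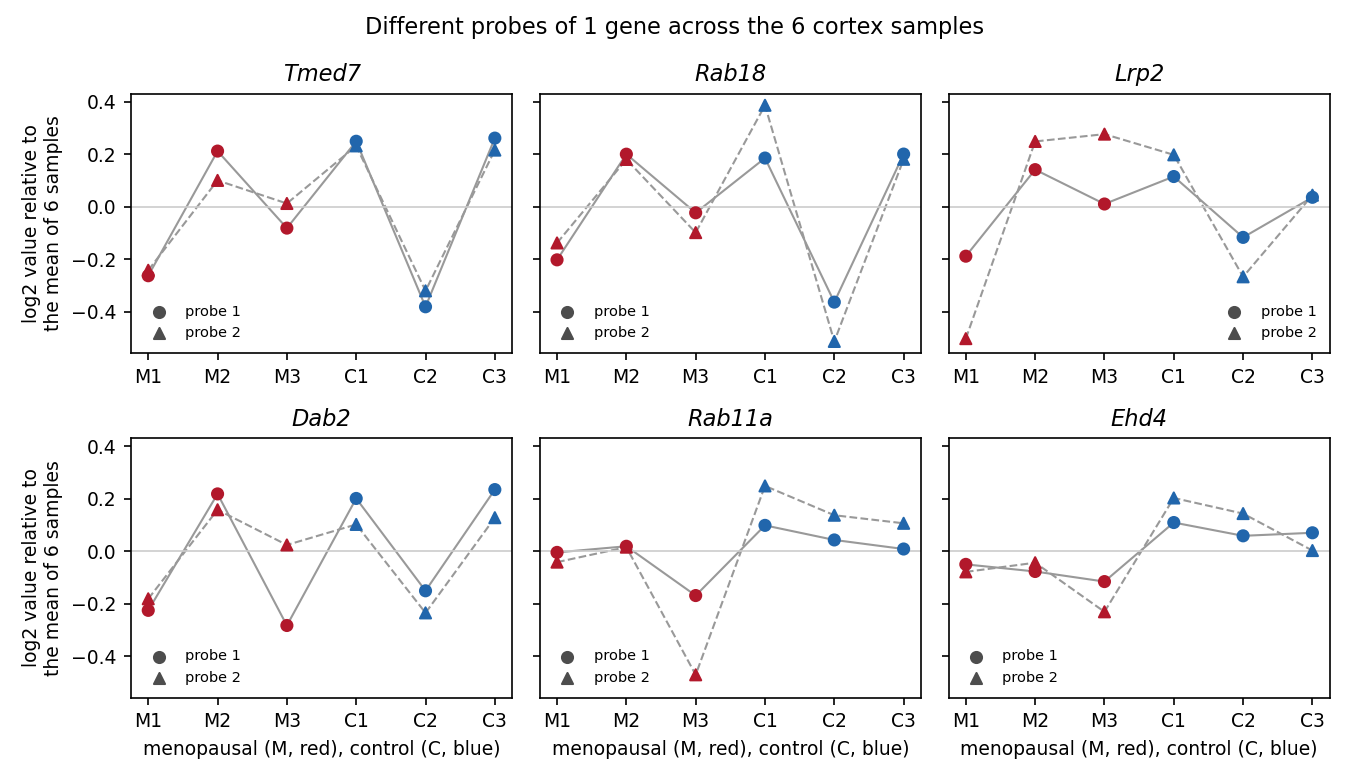
Values of 6 genes with 2 kept probes each in the 6 cortex samples. The vertical axis is the log2 value relative to the mean of the samples, circles and a solid line are the first probe, triangles and a broken line the second, with menopausal samples (M1 to M3) in red and control samples (C1 to C3) in blue. Tmed7, Rab18, Lrp2 and Dab2 have M1 and C2 low on both probes, while both Ehd4 probes put every menopausal sample below every control sample.

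Separate probes of a gene could be compared for 26 member genes. Their 32 pairs of kept probes had a median correlation of 0.62 over the 6 samples, with a range of -0.44 to 0.98, with 21 pairs over 0.5 and 4 below 0. All genes on the array gave 1656 pairs with a median of 0.52. These are descriptions, since the probes share the same 12 arrays. The group difference had the same sign for 19 of the 32 member pairs (59.4%), against 64.6% of all pairs on the array.

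The sign of 46 member differences depended on the normalization. Print-tip loess, which corrects each block of spots on its own, and global loess, which corrects the array as a whole, gave the same sign for 121 members and opposite signs for 46. Under global loess the block explained a share of 0.318 of the variance of the group difference over all probes, against 0.00497 under print-tip loess. The groups did not overlap for 20 members with print-tip loess and for 24 with global loess, 14.4% against 13.3% of all probes, and in the same direction with both for 8 members (4.79%), against 5.05% of all probes. Of the probes named above, those of Ehd4, Rab12, Arfgap2 and Ap4s1 and the first of Ap2m1 are among the 8, which is no more than the array-wide share.

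**Figure D4:**
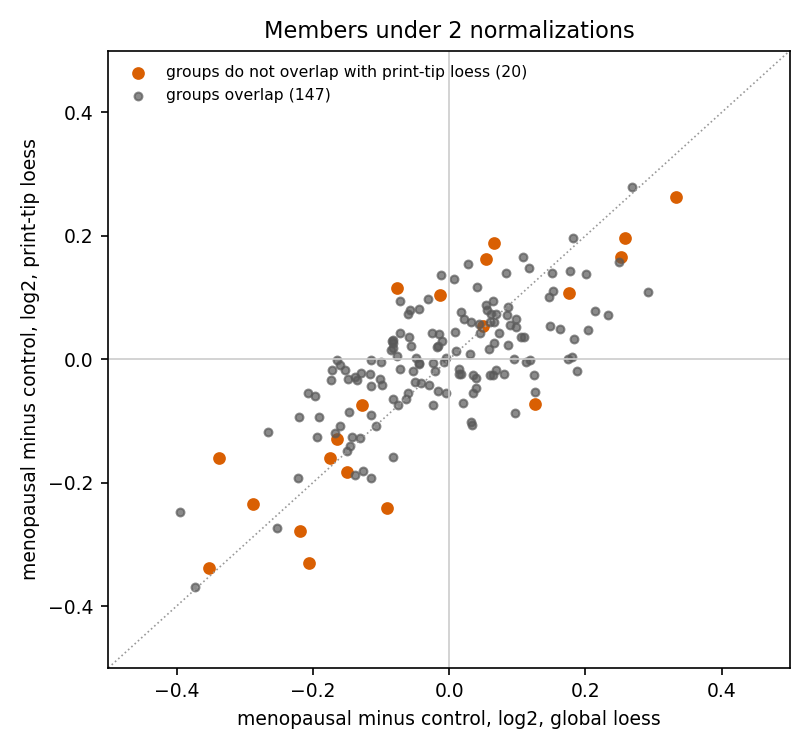
Difference between menopausal and control cortex for the 167 kept trafficking probes under 2 normalizations, both axes on the log2 scale. Each point is a probe, orange where the groups do not overlap with print-tip loess (20 probes) and grey where they do (147 probes). The dotted line marks equality, 121 probes lie in the quadrants where the sign is the same and 46 where it differs.

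No other gene of the pathway, outside the symbol rule, passed the test. Of 56 genes listed, the array held 37, and 35 probes for 29 of them were kept. By limma's test 0 were called, 0% of all probes as above. None had an unadjusted p under 0.05, against 4.98% of all probes tested. The differences lay above 0 for 15 probes and below 0 for 20, with a median of -0.02. Kdelr2, the receptor that returns proteins to the endoplasmic reticulum, had -0.09, -0.05 and -0.16 in Menopausal 1 to 3, against 0.06, 0.08 and 0.15 in Control 1 to 3. The groups did not overlap, and the difference was -0.20 ± 0.09. They did not overlap for 3 more of the 35 kept probes, chosen after their values were seen. The groups did not overlap for 12.1% of all probes tested, so nothing about the pathway follows from this count. Gosr1, a Golgi SNARE, was lower, with a difference of -0.11 ± 0.06. Chmp2a, an ESCRT-III subunit, was higher, with 0.18 ± 0.08. A probe of Atp6v1b2, a subunit of the proton pump of endosomes and lysosomes, was also higher, with 0.19 ± 0.10, while its other kept probe had -0.09 ± 0.15. Lamp2, a lysosomal membrane protein, had a pair of kept probes that disagreed, at -0.32 ± 0.15 and 0.12 ± 0.16. Tfrc, the transferrin receptor and a classic cargo of recycling endosomes, had -0.24 ± 0.11 with overlapping groups.

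Some trafficking genes were too dim to be compared, though their probes were kept more often than those of the array. Kept were 167 of the 221 member probes, against 5620 of 9191 probes with a single symbol and 7776 of all 15600. Of the 221 member probes, 54 were not kept, which left 32 genes with no value, and 26 of these probes were above background in none of the 24 channel measurements. Among the genes without a value were Lrp1, the receptor related to megalin, with 3 probes, Ehd1, and the AP-2 and AP-3 large chains Ap2b1 and Ap3b1. Of the kept members, 145 passed in both groups, 17 only through the menopausal group and 5 only through the control group. How all kept probes of the array split in this way was not counted. Of the kept members, 42 were above background in all 24 measurements. One kept probe, for Scamp1, lacked a value on 1 array.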

How the data were processed

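The authors deposited raw spot intensity values for both channels of each array, per the file headers, and a table of log2 ratios that they had normalized in a way not given in the sources used here. That table was used only for a check of its columns. The longer scan wavelength was taken as the channel of the redder Alexa Fluor dye; the image software is not stated in the labels or headers. Values were recomputed with limma 3.58.1 in R 4.3.3: normexp background correction with an offset of 50 on spot medians, print-tip loess (span 0.3), the 2 copies of a probe averaged and abnormal spots (24 to 418 per array) left out. A probe was kept if its signal exceeded 2 background SDs in at least 6 of 12 measurements of a group. A least-squares fit per probe with a dye term gave 1 value per cortex sample from its 4 arrays. Groups were compared with limma's moderated test, using an intensity trend, and Benjamini-Hochberg adjustment over all 7776 kept probes at 0.05, and samples within a group with its moderated F test on the 12 arrays. The steps were tested on simulated data. Named genes are the 6 members of smallest p per direction whose groups do not overlap, the 3 of smallest F p per group, a panel by role, and other probes of these genes. The members, lists, normalization and rules were chosen with earlier results of these data known. Alternatives covered normalization, background, filter, slide range, repeat mark, each sample left out and a block by number. The numbers were not taken as pairs, since the labels give no pairing. Same-numbered samples did not deviate together (r = -0.36, -0.51 and -0.11 across probes). No array held samples of the same number, which affects these correlations, so they cannot exclude a pairing. Probes with several symbols, 254 on the array, were not named.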

Additional observations from a re-analysis of the deposited data

How the results depend on the processing

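The count of 0 members called between the groups was unchanged under all 17 alternatives, and the median difference stayed between -0.0276 and 0.0369. The 8 members with an unadjusted p under 0.05 became 5 with median centring (3.96% of all probes) and 5 with scaling between arrays (2.58%). They became 2 with no background subtraction (3.02%), 13 of 221 with no filter on dim probes (6.66%) and 4 with the replicate block (3.47%). The count was 4 in the lower slide range only (2.97%), an alternative chosen after seeing the data. With a sample left out it ran from 4 without Control 3 (3.24%) to 13 without Control 2 (6.71%). Without Menopausal 1, where the share of all probes was highest (8.28%), it was 8. The replicate block called 0 members. No menopausal sample correlated best with the control of its own number, but such samples shared no array, so this cannot exclude a pairing. The 0 members called among control samples became 1 with global loess (0.823% of all probes), 1 with median centring (0.939%), 2 with scaling between arrays (0.797%), 1 of 136 with a stricter filter (1.86%), 7 with the repeat mark as a block (5.34%) and 0 to 1 with a sample left out (Cops4, without Menopausal 2, 1.38%). Median centring called 1 member among menopausal samples, Snx2 (0.823%). Signs turned with global loess for Lrpap1 (-0.0768 and -0.0825), Rab11a probe 1 (0.032), Lrp2 probe 1 (0.0171) and Dab2 probe 2 (-0.0044). Median centring turned Lrpap1 (-0.0552 and -0.0689), Rab11a probe 1 (0.082) and Lrp2 probe 1 (0.2063). Scaling turned Lrp2 probe 2 (-0.0849). With no background subtraction Scamp3 (-0.0096), Lrpap1 probe 2 (-0.0435) and Lrp2 probe 1 (0.0347) turned, and with spot means Lrpap1 probe 2 (-0.0268). With a sample left out, the differences ran from -0.107 to 0.0455 for Lrp2 probe 1, -0.1256 to 0.2312 for Lrp2 probe 2, -0.1931 to 0.1264 for Dab2 probe 2, -0.1909 to 0.0171 for Rab11a probe 1, -0.0354 to 0.0968 for Lrpap1 probe 2 and -0.0633 to 0.255 for Cops6 probe 2. The cause of these changes was not tested. With 3 samples per group, the median 95% interval of a member reached 0.214 either side of its difference on the log2 scale, and dim probes rest on few measurements above background.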
